A study of Mus musculus with 12 samples.

Results

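The genes described here encode the receptor chains for interleukin-21 (IL-21) and interleukin-4 (IL-4) with the kinases, transcription factors and inhibitors that act directly behind them. They were chosen by name, from what is known of the pathway, but with earlier results of these data known. The genes were Il21r, Il4ra, Il2rg, Jak1, Jak3, Stat3, Stat6, Socs1 and Socs3. Of these 9 symbols, 8 were found among the 12212 symbols of the count tables, and all 8 passed the filter on low counts, which kept 12081 genes. Socs1 was not analysed here.

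All libraries were made from spleens of NZBWF1/J mice, hybrids of NZB and NZW mice in which a disease resembling lupus arises spontaneously. The treated mice had been given 6 doses each of 200 ug CTLA4-Ig, a soluble receptor that binds CD80 and CD86, and of 250 ug of an antibody to CD40L, within 2 weeks from 18 weeks of age. The control mice were labelled untreated, so no control protein or antibody is named for them, and the labels give no age for them. Germinal center B cells of the dark zone (DZ), where these cells divide and mutate their antibody genes, and of the light zone (LZ), where they meet antigen and helper T cells, were sorted after negative selection for B cells. The 12 libraries, each from 1000 sorted cells, formed 4 groups of 3, which were DZ treated, DZ control, LZ treated and LZ control.

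IL-21 and IL-4 are made in germinal centers mainly by follicular helper T cells. The IL-21 receptor pairs its own chain (Il21r) with the common gamma chain (Il2rg), and the IL-4 receptor pairs Il4ra with the same gamma chain. JAK1 and JAK3, bound to these chains, then phosphorylate STAT3 downstream of IL-21 and STAT6 downstream of IL-4, and SOCS proteins, which are made in response, damp the signal. In B cells IL-21 is known to sustain the germinal center programme and to drive plasma cell formation, and IL-4 to raise CD23 and MHC class II and to direct class switching.

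Il21r and Il4ra are neighbours on mouse chromosome 7. In the GENCODE M21 annotation of build mm10, Il4ra lies at chr7:125552120-125579474 and Il21r at chr7:125603429-125633570, both on the plus strand, with 23954 bases and 0 annotated genes between them. The sequences just upstream of both genes are shown because their transcripts, although so close on the chromosome, differed in several libraries. The one upstream of the RefSeq start of Socs3, a gene known to be induced through STAT3, is also shown. It was the only promoter of the 9 genes with a match to either STAT motif searched. The stretches are from the RefSeq promoter table (build GRCm38.p6), 5′ to 3′ on the strand of the gene, up to the base before the first annotated exon, and lie at chr7:125603179-125603428, chr7:125552021-125552119 and chr11:117969452-117969616 (minus strand). Capitals mark the motif match.
Il21r: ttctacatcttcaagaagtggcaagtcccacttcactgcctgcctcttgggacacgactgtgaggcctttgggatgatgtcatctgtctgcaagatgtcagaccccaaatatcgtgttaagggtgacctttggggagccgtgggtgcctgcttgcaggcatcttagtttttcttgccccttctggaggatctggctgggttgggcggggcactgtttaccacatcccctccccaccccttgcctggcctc
Il4ra: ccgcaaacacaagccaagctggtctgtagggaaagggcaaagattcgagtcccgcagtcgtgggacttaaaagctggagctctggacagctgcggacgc
Socs3: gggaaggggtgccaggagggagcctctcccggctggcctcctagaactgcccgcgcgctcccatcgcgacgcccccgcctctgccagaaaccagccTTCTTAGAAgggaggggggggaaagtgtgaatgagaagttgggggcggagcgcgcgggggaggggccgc

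The motifs were TTCNNNGAA, the form bound by most STAT proteins, and TTCNNNNGAA, the longer form that STAT6 prefers, both read on both strands over the 250 bases before each start. The first occurred in 7.02% of all 32851 promoters of the table, the second in 5.85%, and either one in 12.4%. In the Socs3 promoter the match began 154 bases before the RefSeq start. A match describes the letters only, and a window without one says nothing about binding of a STAT protein elsewhere.

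Library totals were 16032746 to 26837714 counts, so a floor of 3 counts corresponded to 0.0776 to 0.206 in normalised read count (CPM, with library sizes scaled by TMM), and this covers counting error only. DZ treated replicates 1 and 2 and LZ treated replicate 2 lay apart from the others, as their scores on principal component 1 of all genes (34.8% of the variance) were 98.8 to 113, against -61.6 to -6.88 for the other 9 libraries, and the members' differences and the medians of gene groups below are given with and without them. In these 3 libraries the summed level of 8 macrophage markers was 77.9 to 182 CPM, against 5.80 to 45.9 CPM in the other 9. Of the 8 markers, 5 were higher in all 3 than in any of the other 9. The same held for 13.7% of all tested genes, which is the share to set beside the marker counts below. C1qb and C1qc, which mark macrophages, were each at 0 in 8 of the other 9 libraries. Adgre1 (2.46 to 9.59 and 3.92 to 6.88 CPM) overlapped between the 3 and the other 9, as did Cd68 and Mpeg1. The summed level of the 9 listed T cell markers was 230 to 385 CPM in the 3 libraries and 188 to 589 CPM in the others, and overlapped mainly through Lck and Cd2. Still, 4 of the 9 were higher in all 3 libraries: Cd3e (2.61 to 10.6 against 0.658 to 1.99 CPM), Cd4 (0.916 to 5.38 against 0 to 0.152 CPM), Cd8a (0.966 to 2.71 against 0 to 0.16 CPM) and Cd8b1 (1.45 to 6.02 against 0 to 0.521 CPM). The 7 germinal center B cell markers summed to 1510 to 1970 CPM and to 3240 to 4480 CPM, so the sorted cell type was detected in every library but at a lower level in the 3. Summed plasma cell markers were at 1310 to 2410 CPM and at 6430 to 11500 CPM. Naive B cell markers, at 34.3 to 320 CPM and at 0.961 to 66.1 CPM, overlapped, and 0 of the 5 listed were higher in all 3. The plasma cell sum was mostly Jchain (1110 to 2150 and 6210 to 11300 CPM), while Sdc1, Prdm1, Xbp1 and Irf4 overlapped. General B cell markers (5020 to 6250 and 5660 to 9080 CPM), follicular helper T cell markers (106 to 253 and 17.0 to 163 CPM) and erythroid markers (36.9 to 156 and 1.26 to 756 CPM) overlapped between the 3 and the other 9. Of the 3 listed follicular helper markers, Icos (1.55 to 4.63 against 0 to 0.304 CPM) and Pdcd1 (3.61 to 11.5 against 0.258 to 2.86 CPM) were higher in all 3 libraries, and Cxcr5, which B cells also express, overlapped. The part of these differences in the results was not tested. In RNA from sorted pools, fewer cells of a type and less RNA per cell cannot be told apart.

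Compared per kilobase of exon, the gamma chain was the most abundant member and Socs3 the least. In the 6 control libraries the median level was 67.4 CPM per kb for Il2rg, 26.5 for Jak1, 4.93 for Il21r, 3.87 for Stat6, 3.24 for Stat3, 1.03 for Il4ra, 0.741 for Jak3 and 0 for Socs3. Il2rg (25.1 to 173) and Jak1 (22.7 to 35.3) overlapped over these libraries, and so did Il21r, Stat6 and Stat3, and Il4ra and Jak3. Jak1 lay above Il21r (2.54 to 7.70) without overlap. In the 6 treated libraries the median was 34.2 CPM per kb for Il21r, 35.7 for Jak1 and 4.05 for Il4ra. In the 3 treated libraries that did not lie apart it was 9.87 CPM per kb for Il21r, 29.5 for Jak1 and 0.207 for Il4ra. The IL-21 receptor chain was thus more abundant per length than the IL-4 receptor chain in the median of both treatments.

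**Figure D1:**
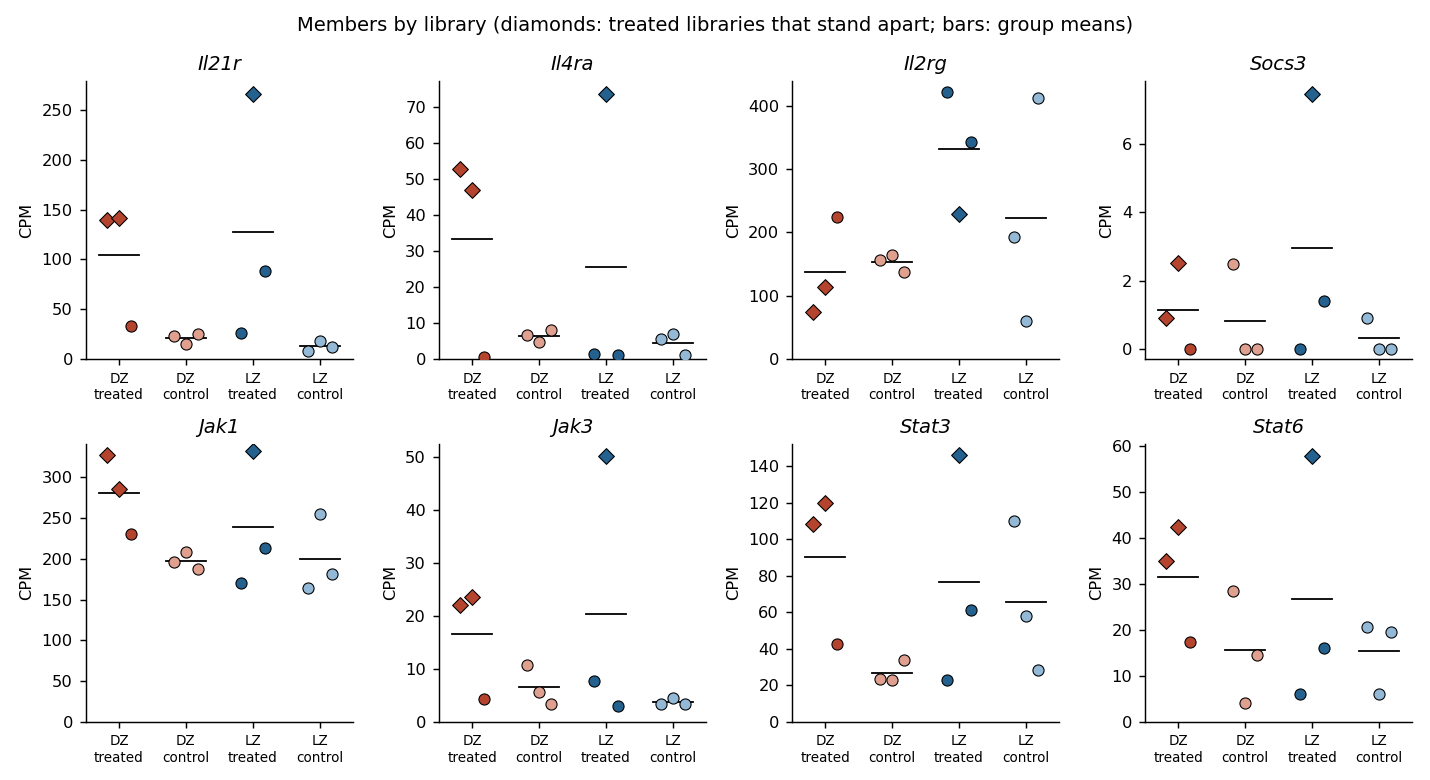
Normalised read count (CPM, linear axes) of each listed member in the 12 libraries, by group, with treated left of control in each zone, and bars at the group mean. Diamonds mark DZ treated replicates 1 and 2 and LZ treated replicate 2. Il21r lay between 26.5 and 266 CPM in the 6 treated libraries, all above the 8.44 to 25.6 CPM of the 6 control libraries, whereas Il4ra was high in the 3 marked libraries alone.

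The comparison of treated with control libraries asks which pathway transcripts differed in germinal center B cells after CTLA4-Ig and anti-CD40L. The receptor chain for IL-21 was higher in treated libraries of both zones. Il21r had 139, 141 and 32.8 CPM in DZ treated libraries, against 23.3, 15.1 and 25.6 CPM in DZ control libraries (means 104 ± 62.1 and 21.3 ± 5.51 CPM, SD, n = 3 each). It had 26.5, 266 and 88.3 CPM in LZ treated libraries, against 8.44, 17.7 and 11.6 CPM in LZ control libraries (means 127 ± 125 and 12.6 ± 4.72 CPM, SD, n = 3 each). Every treated library was above every control library, in each zone and over both zones. Of all tested genes, 0.811% had all 6 treated above all 6 control libraries, and Il21r was the only member among them. The treated libraries themselves spread widely, and the highest values were those of the 3 libraries that lay apart.

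By edgeR's quasi-likelihood test the treated minus control difference of Il21r, averaged over zones, was 2.81 on the log2 scale (SE 0.58, adjusted p = 0.222), which is 7.02-fold. In the DZ it was 2.29 (SE 0.80, edgeR adjusted p = 0.528), and in the LZ 3.33 (SE 0.84, edgeR adjusted p = 0.674). The difference therefore did not pass the threshold of 0.05 after adjustment over all genes. The effects in the LZ and the DZ differed by 1.04 (SE 1.09, edgeR adjusted p = 1). DESeq2, run as an alternative, called Il21r in the LZ (3.28, adjusted p = 0.00424) and in the average over zones (2.77, adjusted p = 0.000119), where it called 1.85% and 6.37% of genes, and did not call it in the DZ (adjusted p = 0.132), where it called 0.616%. Without the 3 libraries that lay apart the edgeR difference was 0.64 (SE 0.81, adjusted p = 1) in the DZ and 2.20 (SE 0.66, adjusted p = 0.66) in the LZ, with a single DZ treated library left whose spread is assumed to be like that of the other groups. With library sizes taken as plain totals, the treated and control ranges of Il21r over both zones overlapped.

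Il4ra, the chain that gives the IL-4 receptor its specificity, behaved differently. It had 53.0, 47.1 and 0.481 CPM in DZ treated libraries, against 6.65, 4.66 and 8.06 CPM in DZ control libraries (means 33.5 ± 28.8 and 6.45 ± 1.71 CPM, SD, n = 3 each). LZ treated libraries had 1.52, 73.7 and 1.24 CPM, against 5.69, 6.89 and 1.02 CPM in LZ control libraries (means 25.5 ± 41.8 and 4.53 ± 3.10 CPM, SD, n = 3 each). The 3 libraries that lay apart were each above every control library, and the other 3 treated libraries, at 0.481 to 1.52 CPM, were below at least 5 of the 6 control libraries. The treated and control groups overlapped in both zones. The edgeR difference was 2.38 (SE 1.69, adjusted p = 0.584) in the DZ and 2.49 (SE 1.70, adjusted p = 0.747) in the LZ.

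Without those 3 libraries the direction of Il4ra turned. In the DZ this rests on treated replicate 3 alone, which had 12 counts of Il4ra. The edgeR difference, treated minus control, was then -3.71 (SE 1.38, adjusted p = 1) in the DZ and -1.70 (SE 0.91, adjusted p = 0.718) in the LZ. Neither direction passed the threshold. Exons of Il4ra share 571 bases with the antisense gene Gm44876, whose reads cannot be told from its own in libraries without strand.

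**Figure D2:**
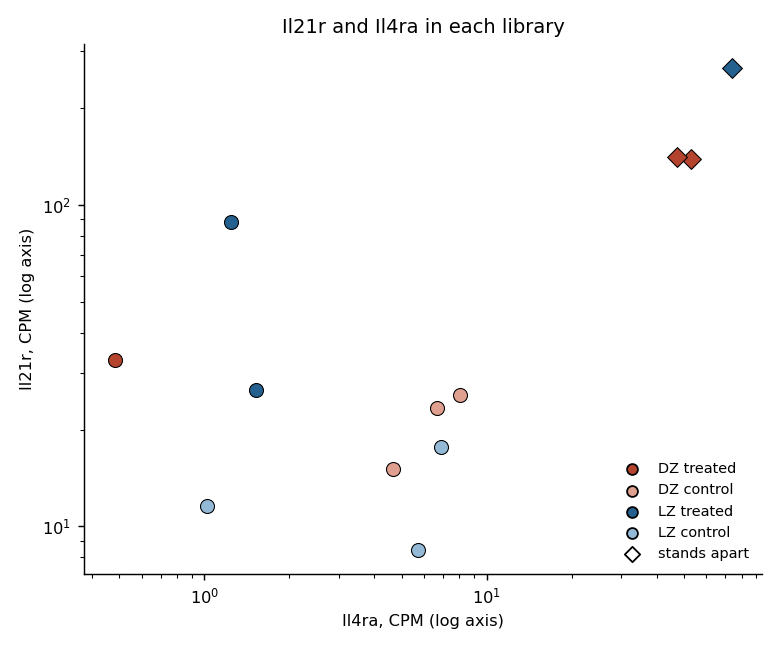
Il21r (vertical) against Il4ra (horizontal) in each of the 12 libraries, both in CPM on log axes, with colours for group and diamonds for DZ treated replicates 1 and 2 and LZ treated replicate 2. The 3 diamonds had 47.1 to 73.7 CPM of Il4ra, and the other 3 treated libraries, at 0.481 to 1.52 CPM of Il4ra, had 26.5 to 88.3 CPM of Il21r.

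Set against each other within a library, which needs no scaling between libraries, the counts of the receptor chains separated the treated libraries into the same sets. There were 2.63 to 3.61 counts of Il21r for each count of Il4ra in the 3 libraries that lay apart. In the other treated libraries the ratio was 68.2 (DZ treated replicate 3), 17.4 (LZ treated replicate 1) and 71.2 (LZ treated replicate 3). In the 6 control libraries it was 1.48 to 11.4. The 3 remaining treated libraries thus had the highest ratios of the study, although the genes are adjacent on the chromosome. These ratios rest on few counts of Il4ra, 12, 26 and 24 in the order given. The 11.4 of LZ control replicate 3 rests on 22 counts. Over 12 libraries the log2 CPM values of Il21r and Il4ra had a Pearson correlation of 0.62, and over the 9 libraries -0.39, a description only, since these values share their scaling factors.

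Il2rg, the gamma chain that both receptors share, did not follow either. It had 74.0, 114 and 225 CPM in DZ treated libraries, against 157, 165 and 138 CPM in DZ control libraries. Its LZ values were 421, 229 and 343 CPM in treated libraries, against 193, 59.9 and 413 CPM in control libraries. The groups overlapped in both zones, and the 3 libraries that lay apart held its lowest values among treated libraries of their zone. The treated minus control difference was -0.15 (SE 0.61, edgeR adjusted p = 0.934) in the DZ and 0.58 (SE 0.61, edgeR adjusted p = 0.847) in the LZ. The DZ difference was 0.57 without the 3 libraries. Exons of Il2rg share 728 bases with Gm20489, and 5 of its 12 deposited values lay midway between whole numbers.

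The values of Il2rg were also higher in the light zone of treated mice. All 3 LZ treated libraries (229 to 421 CPM) were above all 3 DZ treated libraries (74.0 to 225 CPM), which held for 2.24% of tested genes and for no other member. The LZ minus DZ difference was 1.26 in treated libraries (SE 0.62, edgeR adjusted p = 1) and 0.54 in control libraries (SE 0.61, edgeR adjusted p = 1). The margin was narrow, at 229 CPM in the lowest LZ treated library and 225 CPM in the highest DZ treated library. The difference in treated libraries was 0.78 without the 3 libraries.

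The kinases differed in how steady they were. Jak1, which also serves interferon and gp130 receptors, was the steadiest member, with a coefficient of variation of 25.6% over the 12 libraries and a 2.04-fold range. It had 328, 286 and 230 CPM in DZ treated libraries, against 196, 209 and 187 CPM in DZ control libraries, with no overlap. In the LZ it had 171, 333 and 213 CPM in treated libraries, against 164, 255 and 181 CPM in control libraries, with overlap. The edgeR difference was 0.51 (SE 0.32, adjusted p = 0.557) in the DZ and 0.26 (SE 0.32, adjusted p = 0.864) in the LZ. The differences were 0.24 in the DZ and -0.04 in the LZ without the 3 libraries.

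Jak3, the kinase bound to the gamma chain, varied more than Jak1. It had 22.1, 23.5 and 4.29 CPM in DZ treated libraries, against 10.8, 5.62 and 3.34 CPM in DZ control libraries. LZ treated libraries had 7.78, 50.2 and 2.89 CPM, against 3.40, 4.53 and 3.38 CPM in LZ control libraries. The groups overlapped in both zones, and the 3 highest values were in the 3 libraries that lay apart. The edgeR difference was 1.34 (SE 1.04, adjusted p = 0.612) in the DZ and 2.43 (SE 1.08, adjusted p = 0.674) in the LZ. Without the 3 libraries it was -0.60 in the DZ, where the direction turned, and 0.52 in the LZ. Exons of Jak3 share 404 bases with Insl3, and 5 of its 12 deposited values lay midway between whole numbers.

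Stat3, the main STAT downstream of IL-21, was higher in treated DZ libraries. It had 108, 120 and 42.7 CPM in DZ treated libraries, against 23.6, 22.6 and 33.6 CPM in DZ control libraries, with no overlap. Its LZ values were 23, 146 and 61.2 CPM in treated libraries, against 110, 58.0 and 28.1 CPM in control libraries, with overlap. The edgeR difference was 1.76 in the DZ (SE 0.71, adjusted p = 0.528) and 0.23 in the LZ (SE 0.69, adjusted p = 0.943). The LZ effect minus the DZ effect was -1.53 (SE 0.99, edgeR adjusted p = 1), so the effects were not shown to differ between zones. Without the 3 libraries the differences were 0.70 in the DZ and -0.63 in the LZ.

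Stat6, the STAT downstream of IL-4, had 35.1, 42.4 and 17.4 CPM in DZ treated libraries, against 28.4, 4 and 14.5 CPM in DZ control libraries. In the LZ it had 5.97, 57.9 and 16.1 CPM in treated libraries, against 20.7, 5.97 and 19.6 CPM in control libraries. The groups overlapped in both zones, and the highest values were again those of the 3 libraries that lay apart. The edgeR difference was 1.02 (SE 0.94, adjusted p = 0.668) in the DZ and 0.79 (SE 0.94, adjusted p = 0.862) in the LZ. Without the 3 libraries it was 0.17 and -0.48. The counts of Stat3 for each count of Stat6 were 2.53 to 3.06 in the 3 libraries, 2.45 to 3.86 in the other treated libraries and 0.831 to 9.72 in control libraries, so this ratio did not set the 3 apart from the other treated libraries.

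Socs3, which binds gp130-type receptors and JAK kinases and limits STAT3, was close to the floor. It had 0.902, 2.5 and 0 CPM in DZ treated libraries, against 2.47, 0 and 0 CPM in DZ control libraries. LZ treated libraries had 0, 7.47 and 1.39 CPM, against 0.916, 0 and 0 CPM in LZ control libraries. It was thus at 0 in 6 of the 12 libraries, where 3 counts correspond to 0.12 to 0.175 CPM, and no fold is given.

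**Figure D3:**
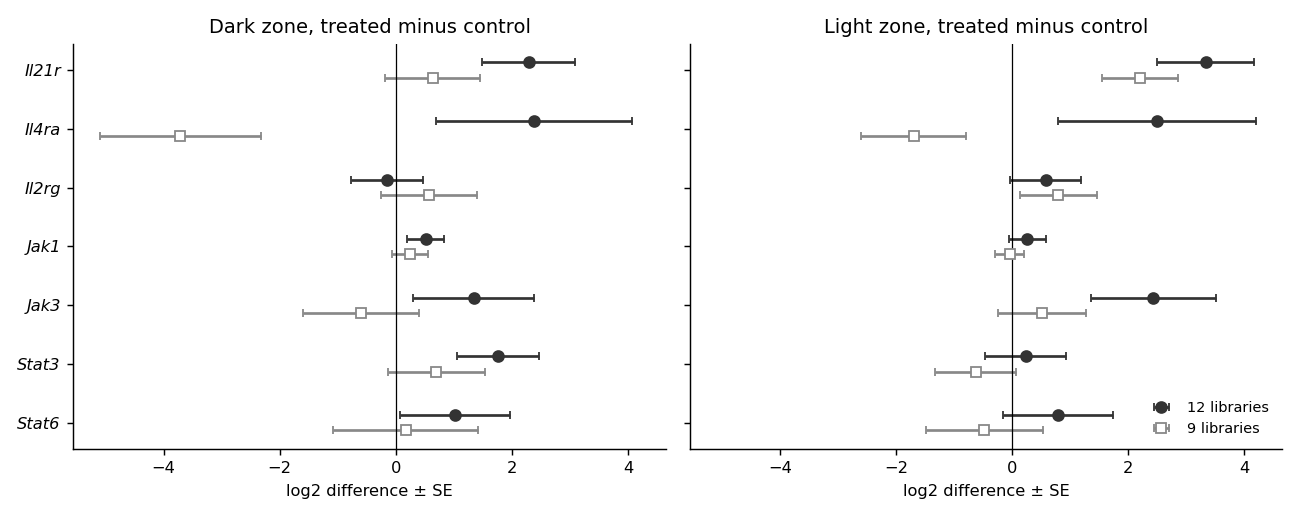
Treated minus control difference on the log2 scale (edgeR) for the 7 members other than Socs3 in the dark zone (left) and the light zone (right), with bars of 1 SE. Filled circles are fits to all 12 libraries and open squares fits without DZ treated replicates 1 and 2 and LZ treated replicate 2. Il4ra was at 2.38 and 2.49 in the fit to 12 libraries and at -3.71 and -1.70 without them, and Il21r stayed above 0 in both zones.

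Over the members together, edgeR called 0 of 8 at an adjusted p of 0.05 in each of the 7 comparisons, against 0% of the 12081 tested genes. At an unadjusted p under 0.05 there were 2 members in the DZ treatment comparison (Il21r and Stat3, background 8.89%), 2 in the LZ (Il21r and Jak3, background 7.36%) and 2 in the average over zones (Il21r and Jak3, background 16.7%). For the difference between zones in treatment effect (background 2.28%), and for LZ against DZ in control (4.93%), in treated (2.06%) and in all libraries (4.93%), there were 0 members. With no overlap between groups, Il21r, Jak1 and Stat3 were higher in DZ treated than DZ control libraries (background 12.5%), and Il21r in LZ treated than LZ control libraries (background 5.82%). For LZ control against DZ control libraries 0 members were without overlap (background 4.47% higher and 5.60% lower).

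The difference was above 0 for 7 of 8 members in the DZ (52.2% of all tested genes), 8 of 8 in the LZ (54.1%) and 8 of 8 in the average over zones (53.9%). The median difference over the members was 1.18 in the DZ and 1.61 in the LZ, against 0.06 and 0.10 over all tested genes. Without the 3 libraries that lay apart it was 0.20 in the DZ, 0.24 in the LZ and -0.0040 in the average over zones, where 4 of 8 members were above 0. Over all tested genes the medians were then -0.106, -0.0368 and -0.108. In the 3 libraries that lay apart, 5 members (Il21r, Il4ra, Jak1, Jak3 and Stat6) were above all other 9 libraries, as were 13.7% of tested genes, while 16.7% were below them. Limma-voom with quality weights called Il21r (2.60, adjusted p = 0.00747), Jak1 (0.64, adjusted p = 0.0382), Jak3 (2.09, adjusted p = 0.0256) and Stat3 (1.99, adjusted p = 0.0165) in the DZ, where it called 26.3% of all genes, and Il21r alone among members in the average over zones (2.5, adjusted p = 0.0189), where it called 8.83%.

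The genes whose levels most resembled those of a member over the 12 libraries were taken from the 7265 tested genes with a mean of at least 10 CPM. For Il21r they were Blk (Pearson r 0.93), a B cell Src-family kinase, Gnai2 (0.93), a G protein subunit, and Eftud2 (0.92), a splicing factor. For Il4ra they were Ncln (0.95), Cc2d1b (0.94) and Slc35c2 (0.91), and for Stat6 they included Stat5b (0.95), another STAT of cytokine receptors. For Stat3 they included Cxcr5 (0.90), the chemokine receptor that brings B cells into follicles. For Il2rg they were Cd180 (0.83), Golga7 (0.82) and Gimap6 (0.81), the lowest likeness of the leading gene of any member. The most similar gene was Cad (0.95), which makes pyrimidines, for Jak1, Ppp6r1 (0.95) for Jak3, Ikbkap (0.93) for Stat3, Bod1l (0.95) for Stat6 and Usp19 (0.93) for Socs3. Over the 9 libraries other than the 3 that lay apart, r was 0.75 for Blk, 0.83 for Ncln, 0.93 for Stat5b, 0.82 for Cxcr5 and 0.82 for Cd180. These libraries share treatment, scaling and depth, and r is given as a description.

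Of the ligands, Il15 and Il10 were the 2 tested of 9 named. Il4, Il13, Il21, Il2, Il7, Il9 and Il6 were not analysed here. Il10, a cytokine that B cells can also make, had 1.87, 2.97 and 0.360 CPM in DZ treated libraries, against 0.754, 2.02 and 10.3 CPM in DZ control libraries. Its LZ values were 1.52, 3.02 and 26.1 CPM in treated libraries, against 0.719, 34.0 and 24.6 CPM in control libraries, so the groups overlapped. Il15, whose receptor uses the gamma chain, had 1.22, 0.821 and 0.481 CPM in DZ treated libraries, against 0, 0.253 and 5.09 CPM in DZ control libraries. In the LZ Il15 was between 0.175 and 19.1 CPM in LZ treated libraries, against 0.458 to 1.32 CPM in LZ control libraries.

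Other receptor chains of the gamma chain, gp130, IL-10 and interferon families numbered 15 of 15 tested, and 0 passed edgeR's adjusted threshold in either direction in any comparison. In the average over zones 11 of the 15 were above 0 (53.9% of all tested genes), with a median of 0.74 against 0.11 over all genes. Of the 15, 4 were above 0 without the 3 libraries that lay apart, and the median turned to -1.54. Il10ra, the ligand-binding chain for IL-10, had 4.60, 8.97 and 0.160 CPM in DZ treated libraries, against 0.0685, 0.152 and 1.48 CPM in DZ control libraries. In the LZ it had 0.0585, 27.8 and 0.0516 CPM in treated libraries, against 0.196, 0.574 and 0.0926 CPM in control libraries. It was therefore high in the same 3 libraries as Il4ra, as was Il7r. Il13ra2 and Il6st, the chain also called gp130, were above the other 9 libraries there by narrow margins only. Their lowest value in the 3 libraries and highest in the other 9 were 1.26 and 1.24 CPM for Il13ra2, and 1.32 and 1.26 CPM for Il6st. Il6st is named here after its values were seen. Of all tested genes, 13.7% were above all other 9 libraries in these 3. Il7r, the IL-7 receptor chain that pairs with the gamma chain, had 1.22, 2.62 and 3.93 CPM in those libraries and 0 to 0.262 CPM in the other 9. Ifnar2, an interferon receptor chain, had 3.19, 4.08 and 13.9 CPM in DZ treated libraries, against 1.58, 0.405 and 6.42 CPM in DZ control libraries, and 18.2, 9.38 and 1.86 CPM in LZ treated libraries, against 2.03, 2.12 and 0.741 CPM in LZ control libraries.

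Among 8 other kinases and STATs tested of 9 named, 0 passed. In the average over zones 6 of 8 were above 0 (median 0.70), against 53.9% of all tested genes. Irs2, an adaptor recruited by the IL-4 receptor, had 59.3, 39.3 and 0.0400 CPM in DZ treated libraries, against 0 CPM in all 3 DZ control libraries. LZ treated libraries had 0.117, 21.6 and 0.103 CPM, against 0, 0 and 0.0926 CPM in LZ control libraries. Its transcripts were thus above 0.12 CPM in the 3 libraries that lay apart and in no other. With Irs2 set to the bound that 3 counts per library allow, the median of the list was still 0.70. That median was 0.036 without the 3 libraries, or -0.061 with Irs2 at its bound. Stat5b, which serves IL-2 family receptors, had 66.0, 56.1 and 26.1 CPM in DZ treated libraries, against 28.5, 1.52 and 11.4 CPM in DZ control libraries, and 2.05, 52.5 and 16.4 CPM in LZ treated libraries, against 11.8, 2.18 and 7.23 CPM in LZ control libraries. Stat5a, its close relative, had 24.3, 26.9 and 12.6 CPM in DZ treated libraries, against 12.6, 4.55 and 8.59 CPM in DZ control libraries, and 5.91, 27.6 and 7.33 CPM in LZ treated libraries, against 4.84, 7.63 and 5.05 CPM in LZ control libraries. The groups overlapped or met in both zones, and the 3 libraries that lay apart had 24.3 to 27.6 CPM, against 4.55 to 12.6 CPM in the other 9.

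Of 16 other inhibitors and phosphatases tested of 17 named, 0 passed. In the average over zones 12 of 16 were above 0 (median 0.64), against 53.9% of all tested genes, and without the 3 libraries 9 of 16 (median 0.16). Ptprc, the CD45 phosphatase, was lower by value, with 354, 284 and 407 CPM in DZ treated libraries, against 843, 648 and 472 CPM in DZ control libraries. Its LZ values were 501, 441 and 497 CPM in treated libraries, against 1050, 681 and 465 CPM in control libraries. Its difference averaged over zones was -0.76 (SE 0.25, edgeR adjusted p = 0.232), and -0.61 without the 3 libraries. Socs7, a relative of Socs3, had a difference of 1.68 (SE 0.53, edgeR adjusted p = 0.232), and 1.88 without them. Pias3, named as an inhibitor of activated STAT3, had one of 1.84 (SE 0.58, edgeR adjusted p = 0.232), and 2.03 without them. Pias4, of the same family, had 40.7, 35.0 and 0.601 CPM in DZ treated libraries, against 0.891, 0.253 and 5.30 CPM in DZ control libraries, and its only LZ value above 1 CPM was 35.4 CPM in LZ treated replicate 2.

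Genes known to be induced by IL-4 numbered 11 tested of 13 named, and 0 passed in any comparison. In the average over zones 8 of 11 were above 0 (53.9% of all tested genes), with a median of 0.78, and Il4ra itself is among them. There were 5 of 11 above 0 without the 3 libraries, and the median was then -0.38. It was 0.23 with Nfil3, at 0 in all LZ treated libraries then left, set to the bound of 3 counts. Il4i1, a secreted amino acid oxidase, had 7.89, 13.6 and 4.65 CPM in DZ treated libraries, against 2.74, 0.961 and 1.96 CPM in DZ control libraries. In the LZ it had 1.05, 43.6 and 1.03 CPM in treated libraries, against 0.981, 0.976 and 1.07 CPM in control libraries, so that outside LZ treated replicate 2 the LZ values lay close together. H2-Ab1, an MHC class II chain, had 1450, 1600 and 1070 CPM in DZ treated libraries, against 832, 647 and 960 CPM in DZ control libraries. LZ treated libraries had 1330, 2370 and 1530 CPM, against 907, 1030 and 1140 CPM in LZ control libraries, with no overlap in either zone. Its difference averaged over zones was 0.76 (SE 0.22, edgeR adjusted p = 0.228), and 0.45 without the 3 libraries. Cd86, a co-stimulatory ligand to which CTLA4-Ig binds and a light zone marker, was higher in LZ than DZ libraries by 1.98 on average (SE 0.45, edgeR adjusted p = 0.991), and by 1.69 without the 3 libraries. Id2, an inhibitor of helix-loop-helix factors, had 111, 49.0 and 145 CPM in LZ treated libraries, against 22.1, 36.9 and 14.9 CPM in DZ treated libraries, a difference of 2.04 (SE 0.52, edgeR adjusted p = 1), and of 3.12 without the 3 libraries. Fcer2a, which encodes CD23 and is named for that textbook role after its values were seen, had 15.8, 16.9 and 0.320 CPM in DZ treated libraries, against 0.480, 0.911 and 6.89 CPM in DZ control libraries. It had 7.25, 95.1 and 0.0516 CPM in LZ treated libraries, against 12.6, 2.12 and 18.2 CPM in LZ control libraries, so the groups overlapped in both zones.

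Genes known to be induced by IL-21 numbered 10 tested of 12 named, and 0 passed. In the average over zones 6 of 10 were above 0, near the 53.9% of all tested genes, with a median of 0.35. Only 1 of 10 was above 0 without the 3 libraries. The median then turned to -1.01, or -0.94 with Socs3 at its bound, against -0.108 over all tested genes. Bcl6, the transcription factor that maintains germinal center B cells, had 92.0, 81.0 and 59.7 CPM in DZ treated libraries, against 265, 78.9 and 93.2 CPM in DZ control libraries. Its LZ values were 57.2, 59.1 and 97.8 CPM in treated libraries, against 126, 68.9 and 86.7 CPM in control libraries, so the groups overlapped while Il21r did not. Irf4, which is needed for plasma cell formation, had 6.73, 7.93 and 0.2 CPM in DZ treated libraries, against 0.274, 0 and 4.3 CPM in DZ control libraries. It had 0.351, 26.4 and 0.206 CPM in LZ treated libraries, against 54.7, 39.3 and 17.7 CPM in LZ control libraries, with overlap in both zones. Junb, an AP-1 subunit, had 62.0, 89.8 and 12.3 CPM in DZ treated libraries, against 42.8, 4.96 and 41.3 CPM in DZ control libraries, and 17.7, 169 and 32.3 CPM in LZ treated libraries, against 7, 11.8 and 68.3 CPM in LZ control libraries. Batf, a transcription factor of class switching, was higher in LZ than DZ libraries by 1.22 on average (SE 0.36, edgeR adjusted p = 0.991), and by 1.37 without the 3 libraries.

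**Figure D4:**
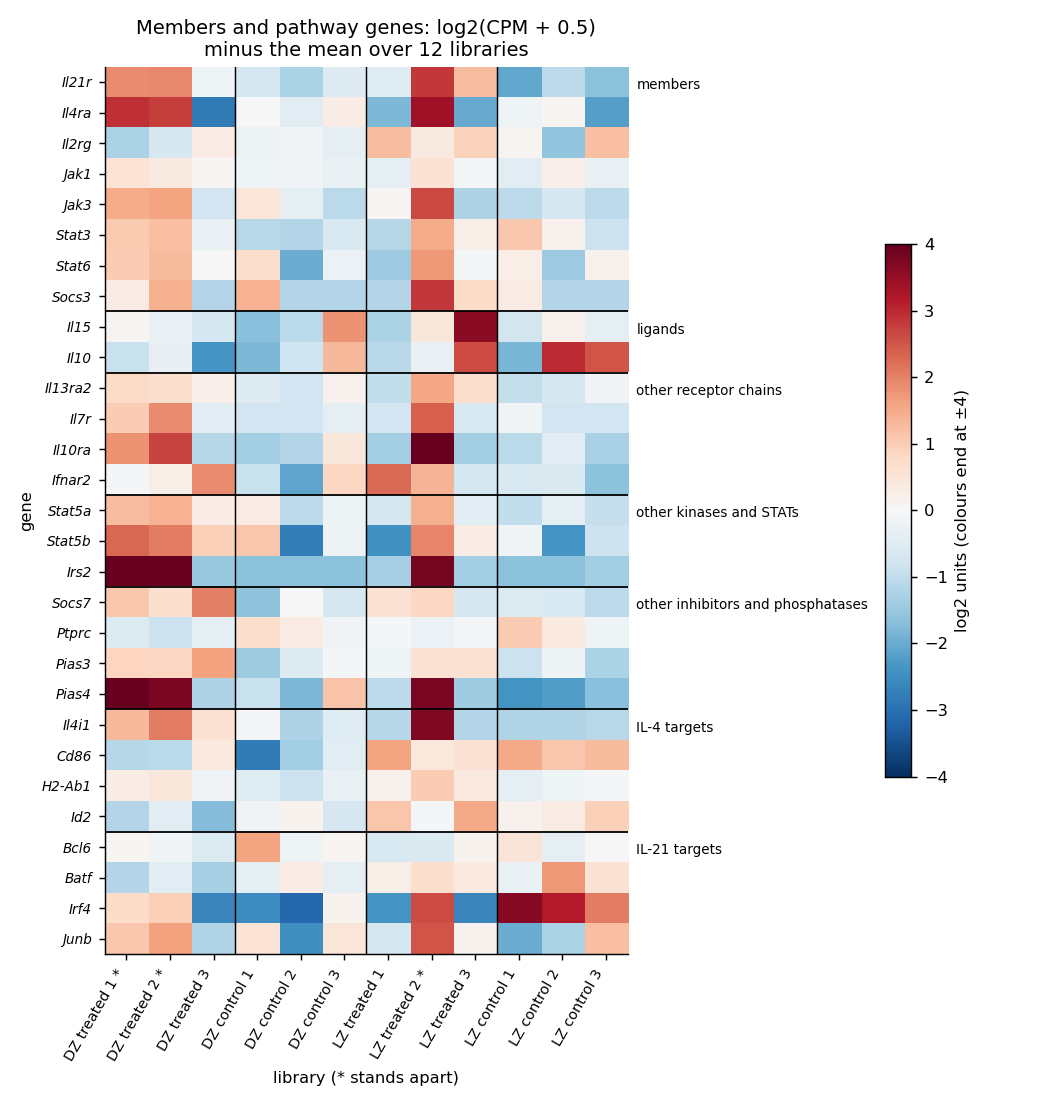
Members and the named pathway genes (rows) in the 12 libraries (columns, treated left of control in each zone), coloured by log2(CPM + 0.5) minus the mean of the gene over the 12 libraries, with colours ending at 4 log2 units either way. Il4ra, Il10ra, Irs2 and Pias4 were high in DZ treated replicates 1 and 2 and LZ treated replicate 2, and Il21r was above the control libraries in the other 3 treated libraries as well.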

How the data were processed

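RNA was measured in 12 libraries of 1000 sorted cells, made with the SMART-Seq v4 Ultra and Nextera XT kits, per the labels' protocols. The kits do not keep strand. Per the submitters' processing notes the authors used BWA and build mm10. Which program counted the reads, and on which annotation, was not given in the sources used here. Files deposited by the authors hold expected counts per gene symbol (whole numbers or values midway between them, which were rounded up), with blank cells read as 0. How the midway values arose is not given, and genes with several transcripts may carry averages.

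Counts were tested with edgeR 4.0.16 (R 4.3.3), using TMM, filterByExpr (minimum count 10, minimum total 15), the robust quasi-likelihood test and a single fit of 4 groups with 7 contrasts. Two-sided p-values were Benjamini-Hochberg adjusted across the 12081 genes, with a threshold of 0.05. DESeq2 1.42.0, limma 3.58.1, other scalings and filters, a replicate block and fits without libraries were alternatives. The fit was also run on simulated counts with known changes, the outcome of which is not used here. CPM used TMM library sizes, and log2 CPM a prior count of 2. Exon lengths and positions came from GENCODE M21. The labels do not say whether replicates are separate mice, so p-values reflect only the variation among these samples, which may be technical.

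The members and lists were chosen with earlier results of these data known. Of each pathway list, genes that passed, and up to 4 more by smallest edgeR p over the 7 comparisons, were named, with all listed ligands; 1 gene that this rule names is not reported here, and Fcer2a, Il6st and Nfil3 were named outside it. For likeness the 3 genes with the highest correlation over 12 libraries were taken. The fit without 3 libraries was chosen after seeing the data.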

Additional observations from a re-analysis of the deposited data

How the results depend on the processing

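With 3 libraries a group, edgeR called 0 genes in every comparison, and so it did with size factors, plain totals, no filter, without the 3 libraries that lay apart, and over all fits that left out 1 library (0 to 0). By DESeq2 the counts were 72 (DZ treatment), 216 (LZ treatment), 16 (difference between zones), 745 (average over zones), 113, 1 and 64 (LZ against DZ in control, treated and all libraries). By limma-voom they were 3178 (DZ treatment), 1067 (average over zones) and 1 (LZ against DZ in control). Plain totals moved the median treated minus control difference of all genes to 0.51 in the DZ, 0.39 in the LZ and 0.49 on average, against 0.06, 0.10 and 0.11 with TMM.

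Over the 904 alternatives to the members' 56 results, 807 kept direction and side of the threshold, 90 reversed and 7 passed it anew. Treated minus control, Il21r stayed above 0 under all of them, at 0.64 to 2.83 in the DZ, 2.18 to 3.87 in the LZ and 1.42 to 3.35 on average. Under limma-voom 12 results turned, among them the zone difference of Il21r (-0.20) and the LZ treatment differences of Il4ra (-0.12), Stat3 (-0.074) and Stat6 (-0.092). Under plain totals 2 turned, among them Il2rg in the DZ (0.19). Without the 3 libraries that lay apart 16 turned, 12 of them treated minus control: Il4ra (-3.71 in the DZ, -1.70 in the LZ, -2.70 on average), Jak3 (-0.60 in the DZ, -0.043 on average), Stat6 (-0.48 in the LZ, -0.16 on average), Il2rg in the DZ (0.57), Jak1 (-0.044) and Stat3 (-0.63) in the LZ, and Socs3, near the floor, in the DZ and on average. Leaving out 1 library gave -0.12 to 1.52 for the zone difference of Il21r, -0.28 to 0.99 for Il2rg between control zones, -0.70 to 0.15 for Il2rg in the DZ, and in the LZ -1.70 to 3.05 for Il4ra, -0.054 to 0.47 for Jak1, -0.64 to 0.84 for Stat3 and -0.49 to 1.26 for Stat6. The causes were not tested.

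The replicate numbers were not shown to pair the samples, since 3 of 6 same-numbered pairs had a correlation over 0.1 (-0.31 to 0.54). With the number as a replicate block 0 genes were called in each comparison. A block within treatment also gave 0, but it was fitted only for LZ against DZ and for the difference between zones in treatment effect.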
